A study of Mus musculus with 11 samples.

Results

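The genes described here encode the translation initiation and elongation factors of mouse CD8+ T cells that were sorted from tumors with or without blockade of LAG-3. They were taken from the deposited count table by symbol: every row whose symbol starts with Eif or Eef, without the Eif2ak kinases and without symbols that hold "-ps". Of 32469 rows, 85 start with these letters, 4 Eif2ak rows and 13 "-ps" rows were left out, and 68 genes remained. Both groups were wild-type C57BL/6 mice bearing subcutaneous Lewis lung carcinoma (LLC), a mouse lung tumor cell line. The 6 aLAG3 mice received 200 µg of anti-LAG-3 antibody (clone C9B7W) into the peritoneum on days 14 and 16 after inoculation, and the 5 untreated mice received none. From each mouse, cells positive for CD8, PD-1 and Ly108 and negative for TIM-3 were sorted, as part of the gate for precursor exhausted cells, and gave 1 poly(A) RNA library. Libraries are numbered as in the labels, with 1 to 5 untreated and 6 to 11 aLAG3.

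Translation starts when eIF2, a GTP-binding trimer, brings the initiator tRNA to the small ribosomal subunit with the help of eIF1, eIF1A, eIF3 and eIF5. The eIF4 factors bind the cap of the message, unwind its leader and bring it to that subunit. eIF2B reloads eIF2 with GTP and is the step at which kinases that phosphorylate eIF2 slow translation. During elongation the eEF1 factors deliver aminoacyl-tRNA and eEF2 moves the ribosome along the message. T cells enlarge this machinery when they are activated, and mTORC1 and Myc are well-known regulators of it.

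Libraries held 313524 to 1901374 counts, and the tests were limited by the shallow ones for genes of low count. Summed markers of the sorted cells (Cd3e, Cd8a, Cd8b1, Pdcd1, Slamf6 and Tcf7) lay at 3570 to 3760 CPM, counts scaled to a common TMM-adjusted library size, in untreated and 3360 to 3920 CPM in aLAG3 libraries. Havcr2, which encodes TIM-3, had 0 to 7 counts per library. Of the markers of other cells, the 6 myeloid genes (Lyz2, Cd68, Csf1r, Itgam, Adgre1 and C1qa) reached 17.8 to 34.0 CPM in untreated and 20.1 to 103 CPM in aLAG3 libraries, with the highest value in library 10. The lists for CD4 and regulatory T cells, NK cells, tumor epithelium and stroma stayed at or under 12.5 CPM in each library. Translation factors are made by every cell type, and the part of these myeloid reads in the results was not tested. In bulk samples a lower level from fewer cells of a type and from less RNA per cell cannot be told apart.

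Among the factor genes are textbook members of the 5′ TOP class, messages that begin with a C followed by a run of pyrimidines and whose translation depends on mTORC1. RefSeq gives promoter entries (GRCm38.p6) for 51 of the 68 genes, and 5 of the 9 textbook TOP genes fixed as a list (Eef1a1, Eef1b2, Eef1d, Eef1g, Eef2, Eif3e, Eif3f, Eif3h and Eif4b) are among them. Their starts are shown because this feature sets the class apart. Each line gives 15 bases before and 15 bases after the annotated start, with the longest run of C and T in capitals (the first of several equal runs for Eef2).
Eef1a1, chr9:78481710-78481739, minus strand: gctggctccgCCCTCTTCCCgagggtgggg
Eif3f, chr7:108934400-108934429, plus strand: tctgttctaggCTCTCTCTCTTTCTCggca
Eif4b, chr15:102073758-102073787, plus strand: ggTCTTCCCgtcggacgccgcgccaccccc
Eef1b2, chr1:63176816-63176845, plus strand: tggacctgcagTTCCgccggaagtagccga
Eef2, chr10:81176616-81176645, plus strand: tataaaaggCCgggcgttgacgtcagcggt
Eef1a1 and Eif3f held a run of at least 8 pyrimidines on the sense strand in this window, and the other 3 did not. The runs of Eef1a1 and Eif3f crossed the annotated start, while those marked for Eif4b, Eef1b2 and Eef2 ended before it. A run was counted anywhere in the window, so it need not begin at the start as the definition of the class asks. Over the 65 promoter entries of all the factor genes, in which a gene with several starts counts several times, 20.0% held such a run, against 12.0% of the 32851 mouse entries. The letters say where the annotated start lies and do not measure which start these T cells used.

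The level of a factor gene spanned several orders of magnitude, also between subunits of 1 complex. To compare genes, CPM was divided by the length of the longest principal transcript in GENCODE M21 (CPM per kb). The study's methods attach the primer barcode of a library at the template-switching end of the cDNA, before fragmentation. Reads that carry it would come from the 5′ end of a message, so counts need not grow with transcript length. Division by length can then set long transcripts too low, and this scale is approximate. Eef1a1, the GTPase that carries aminoacyl-tRNA to the ribosome, stood highest at a mean of 6445 CPM per kb and ranged from 5968 to 6962 over the libraries. Next came Eif1, which guards start codon choice, at 742 CPM per kb and Eif5a, the hypusine-bearing elongation factor, at 731. The range of Eif1 (559 to 845) enclosed that of Eif5a (674 to 770), so their order does not hold beyond the spread. Eef1b2 (587), Eif3h (573), Eef2 (546) and Eef1g (518) followed with ranges that overlapped each other. By mean CPM, without division by length, Eef2 (1687) came next after Eef1a1, ahead of Eef1b2 (1139), Eif5a (1051) and Eif1 (981). Within eIF3, the scaffold of the initiation complex, means ran from 12.7 CPM per kb for Eif3j1 to 573 for Eif3h. On this scale Eif3a (60.8) and Eif3c (84.8) stayed below Eif3k (415), Eif3e (291), Eif3f (258) and Eif3m (258). By mean CPM, Eif3a (311.5) and Eif3c (286.9) were close to Eif3k (321.0) and Eif3m (330.4), while Eif3e (438.5) and Eif3f (648.4) stayed higher. Within eIF4, the helicase gene Eif4a1 had 290 CPM per kb, its paralog Eif4a2 136, the scaffold gene Eif4g1 15.2 and the cap-binding gene Eif4e 13.8. The eIF2 trimer was more even, at 40.7 for Eif2s1 (alpha), 51.2 for Eif2s2 (beta) and 19.7 for Eif2s3x (gamma). The 5 eIF2B subunits lay between 8.62 and 32.2 CPM per kb.

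**Figure D1:**
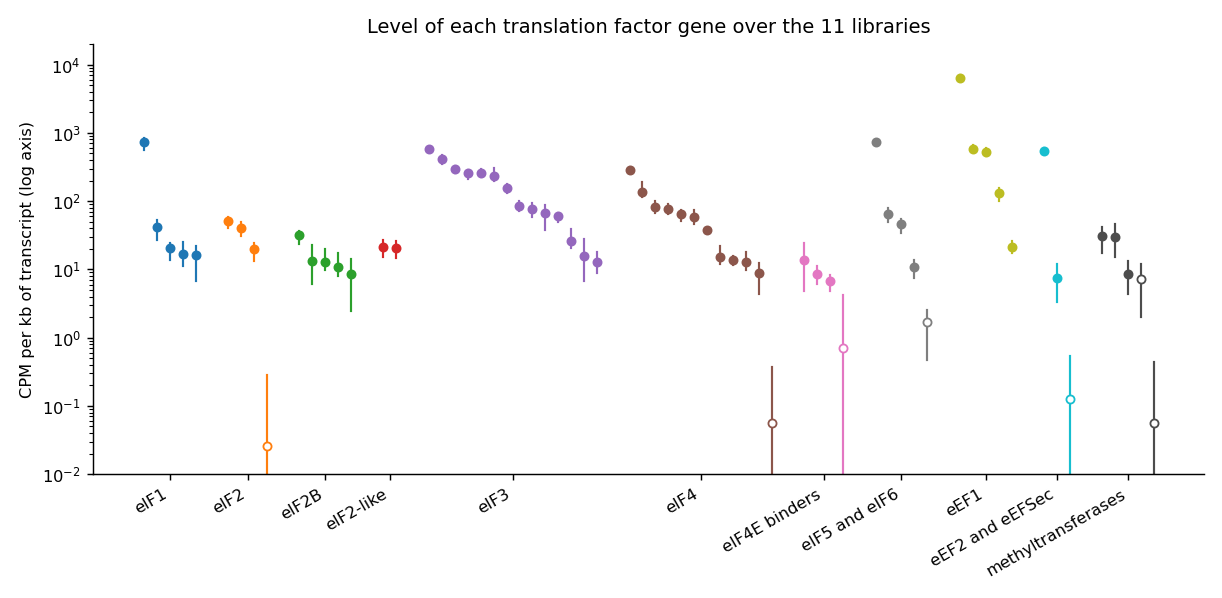
Mean level of each factor gene that had a count and a transcript length, in CPM per kb on a log axis, grouped by complex. Points are means of the 11 libraries, lines run from the lowest to the highest library, lines of genes with a library at 0 stop at the lower axis, and open points mark genes too low to test. Eef1a1 stands alone near 6445 CPM per kb, while subunits of eIF3 spread from 12.7 to 573.

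Sequence shared with other genes limits some of these levels. The handling of reads that match more than 1 gene is not stated, and 17 of the 57 genes tested share more than 10% of their distinct 50-base stretches with another annotated gene. Eif3j2 shared 91.8% and Eif3j1 50.9%, mostly with each other. Eef1g shared 44.2%, Eef1a1 40.4%, Eif3d 37.2%, Eif2s3x 34.6% and Eif4a1 28.4% of their stretches, for example with Gm4366 for Eef1g, Gm13456 for Eef1a1, Gm17638 for Eif3d, Gm2223 for Eif2s3x and Eif4a-ps4 for Eif4a1. Eef1a1-ps1, a pseudogene row that was left out, had 83 to 533 counts per library, against 3466 to 23271 for Eef1a1.

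Of the 68 genes, 11 were too low to test. They include Eef2k, the kinase that inhibits eEF2, which had 9 counts in all and 0 in libraries 2, 4, 8, 10 and 11, where a count of 0 allows up to 3 counts. Eif2s3y, the Y-linked paralog of Eif2s3x, had 1 count in all, Eif4e1b and Eef1akmt3 had 2 each, and Eif4ebp3 had 5. Eif5a2 (77 counts in all), Eef1akmt4 (75), Eef1aknmt (45), Eif4a3l1 (19) and Eif4a3l2 (18) were present but under the filter. Eif2c5, an older symbol of the argonaute family and no translation factor by its role, had none. Eef1a2, the muscle and neuron form of eEF1A, is not a row of the table used here.

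The comparison of aLAG3 with untreated mice asks whether LAG-3 blockade moved the factor genes in precursor exhausted cells. No factor gene passed the test. In edgeR's quasi-likelihood fit, 0 of the 57 genes had an adjusted p (Benjamini-Hochberg) under 0.05, as did 0 of all 6949 genes tested (0%), and the smallest adjusted p of any gene was 0.999. DESeq2 and edgeR's likelihood ratio test also gave 0 factor genes at that threshold. At an unadjusted p under 0.05 there were 2 factor genes (3.51%), Eif2b4, higher after aLAG3, and Eif3j1, lower, and over all genes tested 3.73% were under it. No factor gene had groups that did not overlap in CPM, against 0.475% of all genes. The log2 fold change was above 0 for 40 of the 57 factor genes (70.2%) and for 51.1% of all genes tested. Its median was 0.072 for the factor genes, on the log2 scale, and 0.0045 for all genes. Leaving out aLAG3 library 6 gave 33 of 55 genes above 0 and leaving out aLAG3 library 7 gave 41 of 54, while the 6 libraries of primer barcode 9 alone gave 40 of 59. The number under an unadjusted p of 0.05 was 0 without untreated library 2 or untreated library 5, 4 without untreated library 4, and 1 without untreated library 1 or any of aLAG3 libraries 7, 10 and 11. It was 0 with DESeq2.

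Summed over subunits, the 4 complexes sat at nearly the same level in both groups. eIF2 (4 genes) summed to 344 ± 20.5 CPM (SD, n = 5) in untreated and 337 ± 26.8 CPM (n = 6) in aLAG3 libraries, a difference of −0.03 on the log2 scale. For eIF3 (14 genes) the sums were 3926 ± 145 and 4000 ± 148 CPM, and the log2 difference was 0.03. For eIF4 (12 genes) they were 1979 ± 66.1 and 2038 ± 94.7 CPM, with a log2 difference of 0.04. The 5 eEF1 genes reached 13720 ± 830 and 14270 ± 526 CPM, with a log2 difference of 0.06. Most of this sum is Eef1a1, with means of 11330 CPM in untreated and 11750 CPM in aLAG3 libraries. Each of these differences was smaller than the SD of the log2 sums within each group, except that of eEF1, at 0.059, which lay between the SDs of 0.086 in untreated and 0.053 in aLAG3 libraries. All 68 genes together took 2.35% to 2.68% of the reads.

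**Figure D2:**
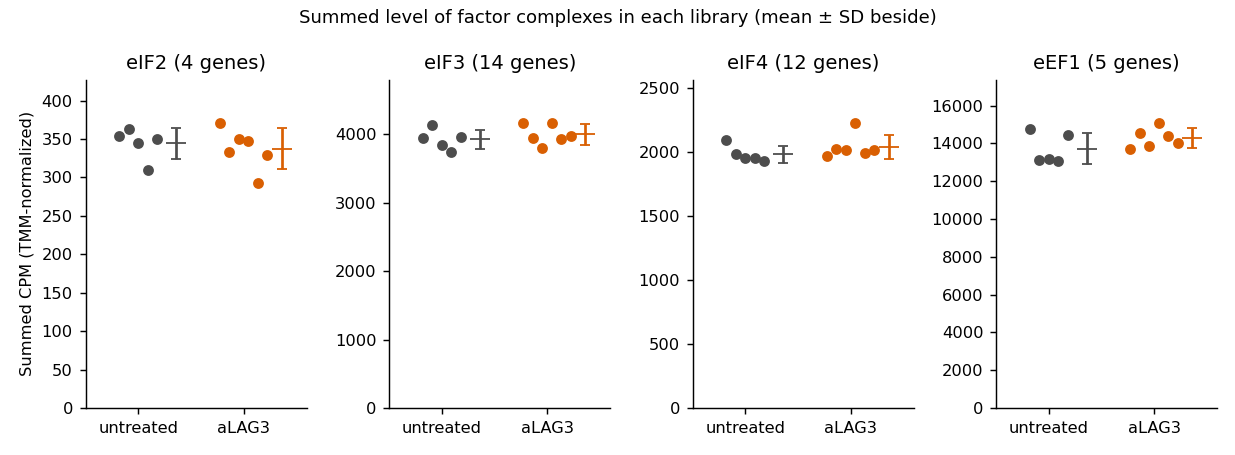
Summed CPM of the eIF2, eIF3, eIF4 and eEF1 genes in each library, untreated in gray and aLAG3 in orange, with mean and SD beside the points and axes that start at 0. The groups overlap in each panel, with eIF3 between 3743 and 4132 CPM in untreated and between 3795 and 4174 CPM in aLAG3 libraries.

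The 3 tested subunits of eIF2 did not move in 1 direction. Eif2s1, the alpha subunit that stress kinases phosphorylate, had 134, 166, 142, 122 and 129 CPM in untreated libraries 1 to 5 and 106 to 162 CPM, median 139, in aLAG3 libraries. Its groups covered each other, with a log2 fold change of 0.02 ± 0.12 (SE). Eif2s2, the beta subunit, had 131, 138, 134, 139 and 148 CPM in untreated and 103 to 139 CPM, median 125, in aLAG3 libraries. Its 3 lowest values were all from aLAG3 libraries (7, 9 and 10), and the log2 fold change was −0.14 ± 0.11 (unadjusted p = 0.215 in edgeR). Eif2s3x, the GTP-binding gamma subunit, had 88.3, 59.5, 69.5, 48.8 and 73.3 CPM in untreated and 52.8 to 89.2 CPM, median 78.4, in aLAG3 libraries, with a log2 fold change of 0.12 ± 0.16. It was 0.26 without untreated library 1 and 0.03 without aLAG3 library 7. Both groups held high and low mice for this gene.

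The eIF2B genes, which encode the exchange factor that recharges eIF2, had the highest median log2 fold change of the complexes with 3 or more tested genes. All 5 had a log2 fold change above 0, with a median of 0.18, although none passed the adjusted test. That median was 0.33 with edgeR's likelihood ratio test and 0.34 with DESeq2, and 4 of 5 were above 0 among the libraries of primer barcode 9. The median also moved with single libraries, to 0.45 without untreated library 1 and to 0.14, with 4 of 5 above 0, without untreated library 5. Eif2b4 (delta subunit, chr5:31187558-31193430, minus strand, GRCm38) had 21.9, 21.9, 23.7, 22.0 and 19.7 CPM in untreated and 31.6, 29.2, 22.5, 30.7, 25.7 and 40.8 CPM in aLAG3 libraries 6 to 11. Only aLAG3 library 8 lay within the untreated range, and the untreated values were close together. The log2 fold change was 0.45 ± 0.21 (95% interval 0.02 to 0.88) with an unadjusted p of 0.0394 and an adjusted p of 0.999 in edgeR. It rests on 7 to 56 counts per library. With primer barcode as a term it was 0.46 (unadjusted p = 0.0531) and within barcode 9 also 0.46 (unadjusted p = 0.0688).

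Eif2b3, the gamma subunit, had 14.8, 9.39, 21.2, 14.6 and 14.3 CPM in untreated and 19.0, 20.4, 33.7, 14.2, 35.3 and 31.2 CPM in aLAG3 libraries. Its 3 highest values, in libraries 8, 10 and 11, were also the 3 aLAG3 libraries of primer barcode 8. The log2 fold change was 0.51 ± 0.28 over all libraries (unadjusted p = 0.0729 in edgeR), 0.32 with primer barcode as a term (unadjusted p = 0.236) and 0.09 within primer barcode 9. The untreated library of barcode 8, library 4, had 14.6 CPM, like the other untreated libraries. Eif2b1 and Eif2b2, the alpha and beta subunits, had log2 fold changes of 0.16 ± 0.24 and 0.18 ± 0.16. Eif2b5, the catalytic epsilon subunit, varied most and had 0.13 ± 0.37, which turned to −0.20 within primer barcode 9 and to −0.005 with barcode as a term. Summed, the eIF2B genes reached 104 to 138 CPM in untreated and 130 to 171 CPM in aLAG3 libraries. Of the 6 aLAG3 libraries, 5 lay above every untreated one and library 7 within their range. The log2 difference of the sums was 0.32 over all libraries and 0.29 within primer barcode 9, larger than the SDs of 0.16 and 0.15 within groups, and it was not tested, because the sum was singled out after its values were seen.

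**Figure D3:**
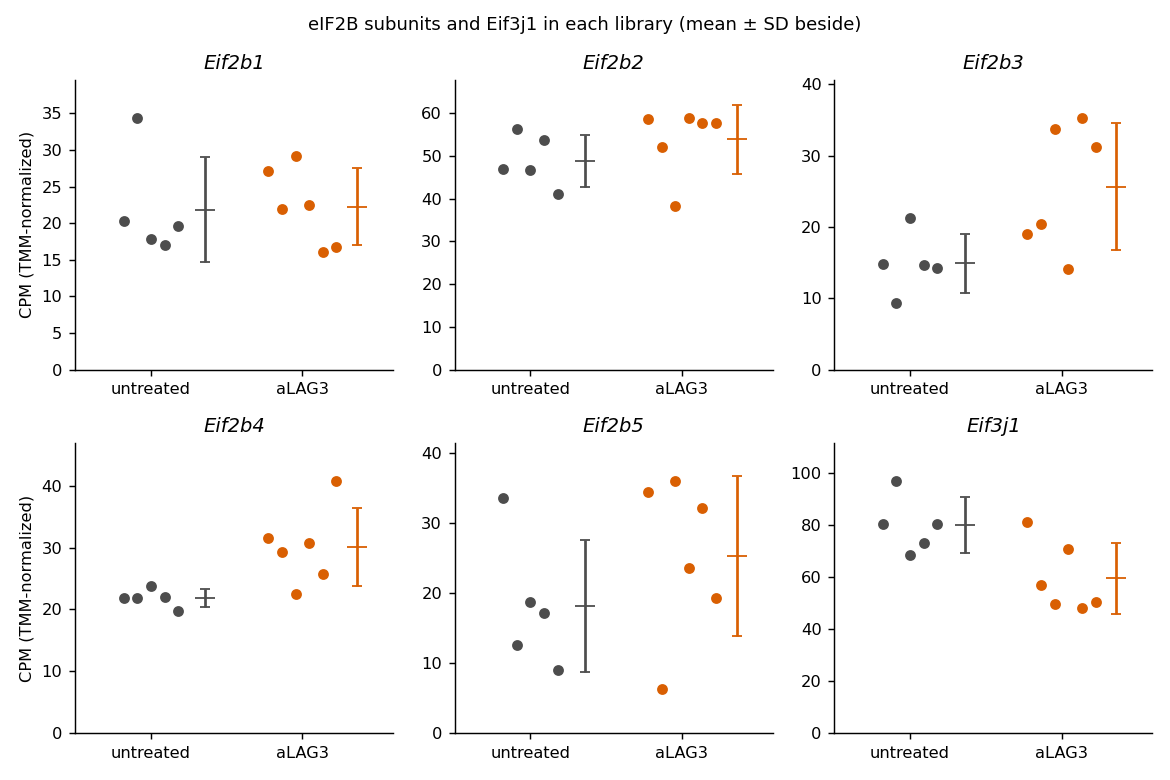
CPM of the 5 eIF2B genes and Eif3j1 in each library, untreated in gray and aLAG3 in orange, with mean and SD beside the points. Eif2b4 lies between 19.7 and 23.7 CPM in untreated libraries and reaches 40.8 CPM in aLAG3 library 11, and Eif3j1 is under 60 CPM in 4 of the 6 aLAG3 libraries.

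Of the 14 eIF3 genes, 9 had a log2 fold change above 0 and 5 below, with a median of 0.04. Single libraries moved this count, to 7 above and 7 below without untreated library 3 (median 0.0028) or aLAG3 library 6 (median 0.0051). Without untreated library 2 it was 11 above and 3 below. Eif3j1, which encodes a loosely bound subunit that acts near the decoding site (chr2:122028546-122056598, plus strand), had 80.5, 97.0, 68.7, 73.2 and 80.4 CPM in untreated and 81.4, 56.9, 49.5, 70.8, 48.2 and 50.4 CPM in aLAG3 libraries 6 to 11. In aLAG3, libraries 7, 8, 10 and 11 lay below every untreated library, and libraries 6 and 9 lay within the untreated range. Its log2 fold change was −0.33 ± 0.15 (95% interval −0.65 to −0.01), with an unadjusted p of 0.0419 and an adjusted p of 0.999 in edgeR. Of those 4 low libraries, 3 carry primer barcode 8. The value was −0.23 with barcode as a term (unadjusted p = 0.142) and −0.15 within barcode 9 (unadjusted p = 0.39).

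Eif3j2, the copy that shares most of its sequence with Eif3j1, had a log2 fold change of −0.03 ± 0.16. Since reads could be assigned to either, the sum of both is less exposed to that assignment. It was 141, 147, 132, 166 and 129 CPM in untreated and 106 to 148 CPM in aLAG3 libraries, with group means of 143 ± 14.7 and 121 ± 16.5 CPM and a log2 difference of −0.24.

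The other eIF3 subunits on the list of named genes varied little. Eif3a, the largest subunit, had 287, 307, 292, 327 and 299 CPM in untreated and 251 to 339 CPM, median 331, in aLAG3 libraries, with a log2 fold change of 0.10 ± 0.09. All aLAG3 libraries but library 10 lay above the untreated ones. Eif3e had 426, 441, 425, 393 and 447 CPM in untreated and 408 to 493 CPM, median 447, in aLAG3 libraries (0.08 ± 0.08). Eif3f had 679, 648, 650, 537 and 631 CPM against 600 to 719 CPM, median 671 (0.08 ± 0.08). Eif3h, at 751, 736, 682, 719 and 758 CPM against 677 to 793 CPM, median 761, gave 0.05 ± 0.07. For these subunits, which hold the octamer core together with Eif3a, the groups overlapped in part of their range.

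In the eIF4 group 7 of 11 tested genes had a log2 fold change above 0, with a median of 0.06. That median was 0.0057 without untreated library 4, 0.00725 within primer barcode 9 and 0.0835 without aLAG3 library 11, each with 6 of 11 above 0. Eif4a1, the main helicase of the cap complex, had 541, 457, 535, 517 and 497 CPM in untreated and 485 to 562 CPM, median 513, in aLAG3 libraries. Its log2 fold change of 0.02 ± 0.07 has a 95% interval of −0.13 to 0.17 and turned to −0.01 with primer barcode as a term. Eif4a2, its paralog, had 285, 288, 250, 310 and 265 CPM in untreated and 284, 328, 270, 427, 324 and 267 CPM in aLAG3 libraries. Library 9 stood well above the rest for Eif4a2, and the log2 fold change was 0.20 ± 0.11 (unadjusted p = 0.0748 in edgeR), the lowest p of the group. Without library 9 it was 0.09 (unadjusted p = 0.364), and within primer barcode 9 it was 0.37 (unadjusted p = 0.0112). Eif4e, the cap-binding protein, had 71.9, 72.0, 69.5, 73.2 and 64.3 CPM in untreated and 57.6 to 79.5 CPM, median 66.7, in aLAG3 libraries. With a log2 fold change of −0.03 ± 0.14, its sign turned within primer barcode 9 (0.05). Eif4g1, the scaffold, had 82.8, 122, 103, 68.3 and 92.9 CPM in untreated and 67.5 to 98.9 CPM, median 77.5, in aLAG3 libraries. Its log2 fold change was −0.24 ± 0.14 (unadjusted p = 0.106 in edgeR), and 4 of its 5 highest values were from untreated mice.

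The genes of the proteins that hold eIF4E back were low, and none passed the test. Eif4ebp1, the mTORC1-regulated repressor 4E-BP1, had 21.9, 31.3, 19.5, 48.8 and 41.1 CPM in untreated and 9.60 to 32.1 CPM, median 24.7, in aLAG3 libraries. The lowest, library 11, rests on 4 counts. Its log2 fold change was −0.29 ± 0.27 and became 0.09 within primer barcode 9, so no direction is given. Eif4ebp2 had 30.5, 28.2, 38.1, 46.3 and 42.9 CPM in untreated and 33.4 to 47.9 CPM, median 40.9, in aLAG3 libraries, with 0.15 ± 0.18. Leaving out one library gave 0.05 to 0.24 for Eif4ebp2. Eif4enif1, which shuttles eIF4E into the nucleus, had −0.25 ± 0.20.

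All 4 tested genes of the eIF5 and eIF6 group had log2 fold changes above 0, between 0.06 and 0.19. Eif5a had 992, 1093, 1093, 995 and 969 CPM in untreated and 1027 to 1106 CPM, median 1072, in aLAG3 libraries, with a log2 fold change of 0.06 ± 0.06 (95% interval −0.07 to 0.18). Its coefficient of variation over the 11 libraries was 4.61%, the smallest of all factor genes tested. Eif6, which keeps the large ribosomal subunit apart from the small one, had 102, 93.9, 90.7, 90.2 and 73.3 CPM in untreated and 88.5 to 119 CPM, median 104, in aLAG3 libraries. In 5 of the 6 aLAG3 libraries it lay above every untreated one, and the log2 fold change was 0.19 ± 0.13 (unadjusted p = 0.134 in edgeR). Of the 5 eIF1 and eIF1A genes, 3 were above 0 and 2 below.

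Of the genes tested, Eef1a1 had the narrowest interval. It (chr9:78478449-78489151, minus strand) had 12360, 10850, 10720, 10710 and 12020 CPM in untreated and 11030 to 12490 CPM, median 11710, in aLAG3 libraries. The highest untreated library lay within the aLAG3 range and the lowest aLAG3 library within the untreated range. The log2 fold change was 0.05 ± 0.05 with a 95% interval of −0.04 to 0.15. Eef1b2, the exchange factor for eEF1A, had 1067, 1130, 1094, 1093 and 1210 CPM in untreated and 1073 to 1297 CPM, median 1145, in aLAG3 libraries (0.05 ± 0.06). Eef1g, a structural subunit of that exchange factor, had 969, 852, 1026, 922 and 858 CPM in untreated and 904 to 1124 CPM, median 1003, in aLAG3 libraries. It had the lowest p of the eEF1 genes, with a log2 fold change of 0.10 ± 0.07 (unadjusted p = 0.152 in edgeR). Eef2, the translocase, had 1882, 1637, 1610, 1539 and 1798 CPM in untreated and 1581 to 1798 CPM, median 1671, in aLAG3 libraries. The log2 fold change was −0.01 ± 0.06, and it turned to 0.0021 with upper quartile scaling. Of the 5 eEF1 genes all were above 0 (4 of 5 within primer barcode 9), of eEF2 and Eefsec both were below 0, and of the 9 textbook TOP genes 8 were above 0, with a median of 0.06 and no unadjusted p under 0.05.

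**Figure D4:**
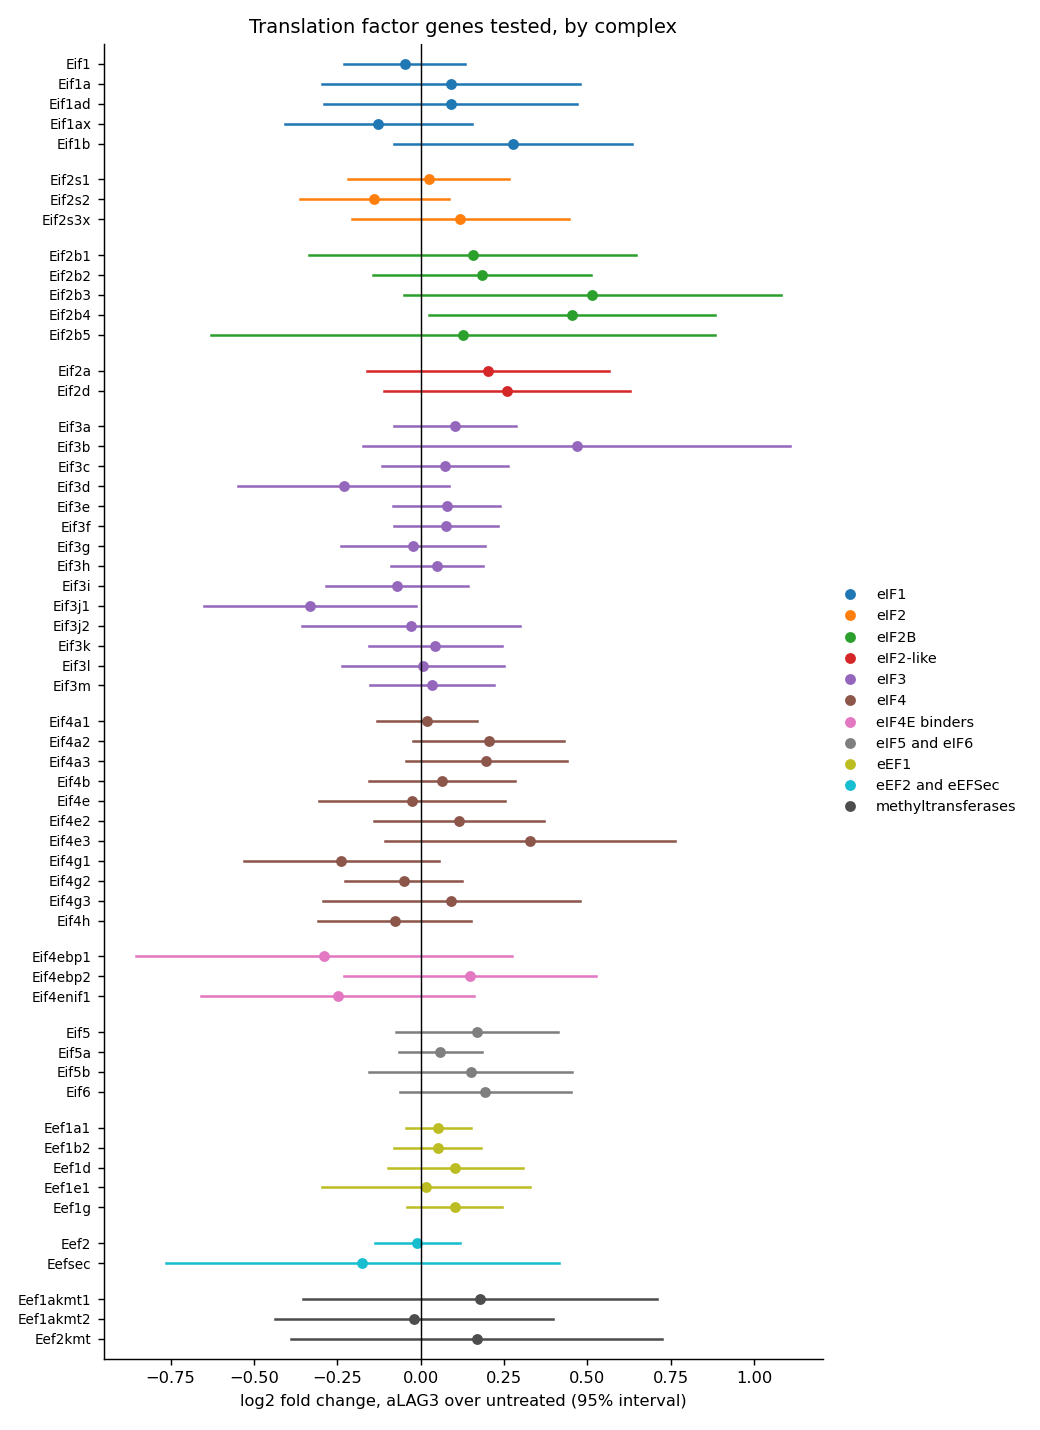
Log2 fold change of aLAG3 over untreated for the 57 factor genes tested, colored by complex, with 95% intervals of the edgeR fit and a line at 0. The intervals of Eif2b4 (above 0) and Eif3j1 (below 0) are the ones that leave out 0 before adjustment, and that of Eef1a1 is the narrowest.

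Ratios of paralogs within a library do not depend on its depth scaling. Eif4a2 over Eif4a1 was 0.47 to 0.63, median 0.53, in untreated and 0.47 to 0.84, median 0.58, in aLAG3 libraries. Eif4ebp2 over Eif4ebp1 ranged from 0.90 to 1.96, median 1.04, in untreated and from 1.10 to 4.75, median 1.81, in aLAG3 libraries, a difference in mean log2 ratio of 0.73 against SDs of 0.47 and 0.81. The value of 4.75 is library 11, where Eif4ebp1 had 4 counts. Eif4g2 over Eif4g1 was 2.26 to 4.71 and 2.89 to 4.66, Eif4e2 over Eif4e 1.29 to 1.78 and 1.49 to 2.33, and Eif1b over Eif1 0.025 to 0.061 and 0.037 to 0.061. The groups overlapped for every ratio that could be formed.

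Some factor genes spread between the 11 libraries by more than counting error. Each mouse gave 1 library, so differences between mice and between library preparations cannot be told apart. Dispersion was measured within the groups, as chi-square per degree of freedom against equal CPM in the libraries of a group, added over both groups. Counting error alone gives 1. The median was 1.45 for the factor genes and 1.46 for all genes tested. Because this measure grows with the count, abundant genes such as Eef1a1 (34.2, with a coefficient of variation of 5.73%) are high on it. Among genes of modest count, Eif3b and Eif2b5 stood out, and they were singled out after their values were seen. Eif3b, a core scaffold subunit of eIF3, had 57.8, 31.3, 20.3, 46.3 and 26.8 CPM in untreated and 61.5, 19.8, 80.9, 79.1, 28.9 and 50.4 CPM in aLAG3 libraries. Its chi-square per degree of freedom was 10.2, which 1.27% of all genes exceeded. Eif2b5 had 33.6, 12.5, 18.7, 17.1 and 8.94 CPM in untreated and 34.4, 6.26, 35.97, 23.6, 32.1 and 19.2 CPM in aLAG3 libraries, with 5.72. Both genes were lowest in aLAG3 library 7, the deepest, and highest in aLAG3 library 8. Eif3b had a log2 fold change of 0.47 ± 0.31 (unadjusted p = 0.145 in edgeR), and it was under an unadjusted p of 0.05 when library 7 or untreated library 1 was left out.

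Some factor genes differed between libraries by a technical label. The titles of the libraries carry a primer barcode number: 9 in untreated 1, 3 and 5 and aLAG3 6, 7 and 9, 8 in untreated 4 and aLAG3 8, 10 and 11, and 10 in untreated 2. With the treatment group as a second term, chosen after seeing the data, 26 of 6949 genes (0.374%) differed between barcodes 9 and 8 at an adjusted p under 0.05, and 2 factor genes were among them. Eif1 (chr11:100319885-100322096, plus strand) had 1011 to 1105 CPM in the 6 barcode 9 libraries and 739 to 942 CPM in the 4 barcode 8 libraries. The log2 difference was 0.33 ± 0.07 with an adjusted p of 0.0372 in edgeR. Eif3d, a subunit that can itself bind the cap (chr15:77958998-77970813, minus strand), had 125 to 165 CPM with barcode 9 and 70.7 to 107 CPM with barcode 8. Its log2 difference was 0.65 ± 0.14 with an adjusted p of 0.0400. For both genes barcodes 9 and 8 did not overlap. The share of all genes without overlap between these barcodes was not counted, so how unusual this is remains unknown. The untreated barcode 8 library lay within the aLAG3 libraries of that barcode for Eif1 (795 CPM) and above them for Eif3d (107 CPM). Eif1ax, the X-linked gene of eIF1A, did not overlap either, at 112 to 126 and 70.7 to 97.6 CPM, but had an adjusted p of 0.257.

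These calls depended on single libraries, while the size of the differences did not change much. Leaving out 1 library gave log2 differences of 0.28 to 0.38 for Eif1 and 0.58 to 0.74 for Eif3d, with adjusted p-values of 0.0368 to 0.296 for Eif1 and 0.0400 to 0.187 for Eif3d. Both calls were lost without any of untreated libraries 1, 4 and 5 or aLAG3 libraries 7, 8, 9, 10 and 11, the call of Eif1 was also lost without untreated library 3 or aLAG3 library 6, and within the aLAG3 libraries alone 0 factor genes were called, at log2 differences of 0.31 for Eif1 and 0.74 for Eif3d. The barcode 8 libraries also held few counts (313524 to 451465). The library of barcode 10, untreated 2, was as shallow at 317449 counts and had 1118 CPM of Eif1, 147 CPM of Eif3d and 110 CPM of Eif1ax, nearer to the barcode 9 than to the barcode 8 libraries for each gene. It is a single library of its barcode, and the part of depth in the difference between barcodes 9 and 8 was not tested. A second code in the titles is shared between the groups only by untreated libraries 2 and 3 and aLAG3 library 10, and it was not used in a fit. Since barcode 8 is in 3 of 6 aLAG3 and 1 of 5 untreated libraries, it bears on the treatment comparison of these genes. Eif3d had a log2 fold change for aLAG3 of −0.23 over all libraries, −0.12 with barcode as a term and −0.07 within barcode 9. For Eif1 it was −0.05 over all libraries and 0.04 within barcode 9, and for Eif1ax −0.13 and −0.01.

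**Figure D5:**
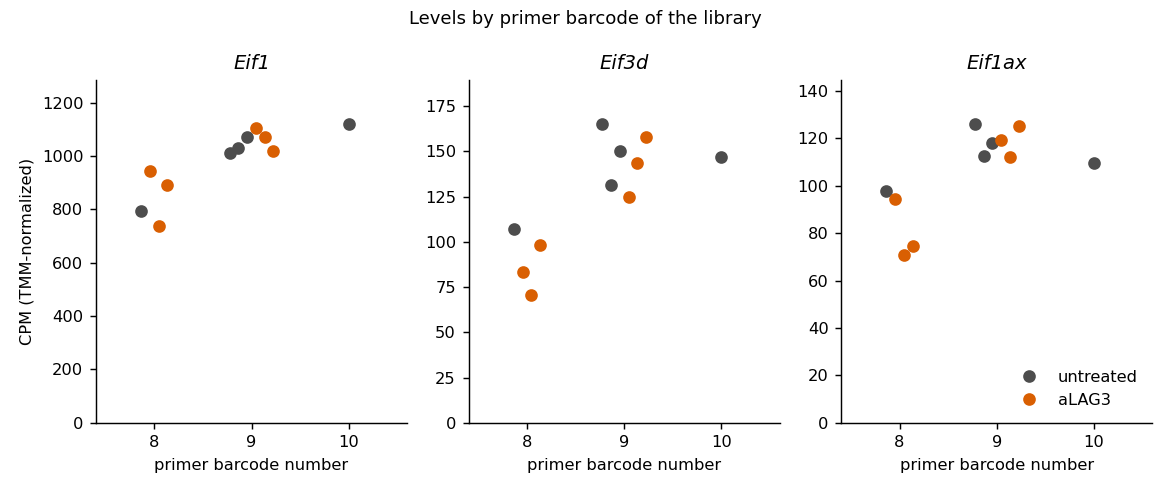
CPM of Eif1, Eif3d and Eif1ax in each library by the primer barcode in its title, untreated in gray and aLAG3 in orange, on axes that start at 0. Libraries of barcode 8 lie below those of barcode 9 for each gene, as for Eif3d with 70.7 to 107 against 125 to 165 CPM. Barcode 8 holds 1 untreated library and barcode 10 a single library, also untreated.

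Genes that control these factors or act beside them in translation were read from a list of 36, of which 27 were tested and none passed the adjusted test. At an unadjusted p under 0.05 there were 4 (14.8%, against 3.73% of all genes), 2 higher and 2 lower. Myc, a transcription factor that drives ribosome and factor genes, had 40.9 ± 10.4 CPM in untreated and 57.8 ± 11.9 CPM in aLAG3 libraries (log2 fold change 0.51 ± 0.19, unadjusted p = 0.0137 in edgeR). Atf4, whose translation rises when eIF2 is phosphorylated, had 146 to 213 and 184 to 260 CPM (0.28 ± 0.12, unadjusted p = 0.0255). Ppp1r15b, a subunit of the phosphatase that reverses that phosphorylation, had 47.0 to 78.6 and 42.7 to 74.4 CPM (−0.38 ± 0.16, unadjusted p = 0.027), and Denr, a factor for ribosome recycling and reinitiation, had 124 to 160 and 101 to 126 CPM (−0.27 ± 0.11, unadjusted p = 0.0246). For each of these genes the groups overlapped. Of the eIF2 kinases, Eif2ak2, the interferon-inducible PKR, had 27.1 to 70.7 and 19.3 to 38.2 CPM (−0.44 ± 0.23, unadjusted p = 0.0632), Eif2ak1 had −0.16 ± 0.19, and Eif2ak3 and Eif2ak4 were under the filter. The 6 tested genes of the mTORC1 path split evenly, with 3 above and 3 below 0.

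Myc and its relatives bind the E-box CACGTG, a palindrome that reads the same on both strands. Over the 300 bases from 250 before to 50 after the start, 16 of the 65 promoter entries of the factor genes held it (24.6%), against 7.15% of all mouse entries. Those entries were not limited to genes expressed in these cells or matched for base composition, and the gap was not tested. Eif5a, with several annotated starts close together, gave 3 of the 16. A match in these letters is a description of the sequence and not a bound site.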

How the data were processed

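The authors sorted the cells, prepared on-bead poly(A) cDNA libraries with template switching and PCR, trimmed reads with cutadapt, mapped them to GRCm38 reference RNA with Bowtie2 and deposited raw counts per gene symbol. The labels give cutadapt 4.1 and Bowtie2 2.4.5, and the study's methods name other versions. Strand use and the handling of multiply mapped reads are not given in the sources used here. All 11 columns carry the title of 1 sample each.

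The deposited counts were filtered with filterByExpr, which asked for 17.7 CPM in 5 libraries, and 6949 of 32469 genes were kept. Normalization was by TMM in edgeR 4.0.16 (factors 0.985 to 1.01), and groups were compared with the quasi-likelihood test and Benjamini-Hochberg adjustment over all genes tested. R 4.3.3, DESeq2 1.42.0 and Python 3.11.15 were used. Standard errors are the absolute log2 fold change over the square root of F. Log2 fold changes come from the fit, in which deep libraries weigh more, and can differ from ratios of mean CPM. The script was tested on simulated counts. Intervals of log2 fold changes include the spread between libraries, the 3-count floor covers counting error only, and reads are not unique molecules.

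Gene coordinates, transcript lengths and shared sequence come from GENCODE M21 (65 of 68 symbols found), and starts from RefSeq. Named genes were 19 listed factors, every factor gene with an unadjusted p under 0.05 or with groups that do not overlap, and the lowest p of each of eIF2, eIF2B, eIF3, eIF4 and eEF1. Eif2b3, Eif2b5, Eif3b, Eif1, Eif3d and Eif1ax, the eIF2B sum and the Eif3j1 and Eif3j2 sum were chosen after their values were seen. The members and lists were chosen with earlier results of these data known. Alternatives were the likelihood ratio test, DESeq2, other scalings, no filter, primer barcode as a term or barcode 9 alone, and leaving out each library. Some marker genes of the gate and of other cells are not reported here.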

Additional observations from a re-analysis of the deposited data

Results flagged for a closer look

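Values of the named genes and of the complex sums were screened for a library far from the others of its group. Of 50 sets of values, 2 held one, and chance alone gives about 1 in 20. Eif3a was lowest in aLAG3 library 10, at a log2 CPM of 7.97 (251 CPM), while the other aLAG3 libraries lay between 328 and 339 CPM, a gap of 0.898 of the group's range. That library is among the shallowest, carries primer barcode 8 and has the highest sum of myeloid markers, and the part of these in the value was not tested. The summed eIF4 genes were highest in aLAG3 library 9, at a log2 CPM of 11.12 (2227 CPM), against 1963 to 2024 CPM in the other aLAG3 libraries, a gap of 0.759 of the range. Eif4a2, at 427 CPM in that library, is one of the genes in this sum.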

How the results depend on the processing

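The count of 0 factor genes at an adjusted p under 0.05 was the same under each alternative. The log2 differences of the eIF2, eIF3, eIF4 and eEF1 sums moved by less than 1 SD between libraries, although that of eIF2 was 0.0032 within primer barcode 9 and 0.0092 without aLAG3 library 10, and that of eIF3 was −0.0033 as a mean of log2 CPM. The median log2 fold change lay between 0.05 and 0.08. The smallest adjusted p of a factor gene was 0.642 (Eif3b) without aLAG3 library 7, where 2 of all genes were called, and 0.722 without the filter on low counts, where 3 were. The number of genes at an unadjusted p under 0.05, 2 as reported (Eif2b4 and Eif3j1), was 0 with DESeq2, 1 with primer barcode as a term (Eif4a3), 1 within primer barcode 9 (Eif4a2) and 0 to 4 without one library. Signs turned for 5 of the genes named by rule. Eef2 had 0.0021 with upper quartile scaling, 0.0077 with the barcode term and −0.041 to 0.035 without one library. Eif4a1 had −0.0089 with the barcode term, −0.019 within barcode 9 and −0.014 to 0.045 without one library. Within barcode 9, Eif4e had 0.0505 and Eif4ebp1, at −0.29 over all libraries, had 0.0915. Without one library, Eif2s1 ranged from −0.032 to 0.067 and Eif4e from −0.091 to 0.0087. The cause was not tested. The 2 factor genes that differed between primer barcodes became 0 in the aLAG3 libraries alone, where their log2 differences were 0.31 (Eif1) and 0.74 (Eif3d), and 0 to 2 without one library. No paired analysis was possible because the groups share no library number. Counts of 4 to 58 per library limit low genes such as Eif4ebp1.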
